A study of Mus musculus with 26 samples.

Results

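The cystatin genes of the mouse were examined in RNA-seq counts of the initial segment (IS), the caput and the testis of ArKI and wild-type (WT) males. The group was fixed by gene symbol and holds 10 genes, *Cst3*, *Cst6*, *Cst7*, *Cst8*, *Cst9*, *Cst10*, *Cst11*, *Cst12*, *Cst13* and *Cstl1*, of 23337 genes counted. All 10 are in the count tables, and 9 had at least 1 count in some sample. ArKI mice are a knock-in line that carries point mutations at an endogenous locus in every cell. The controls were WT littermates, and all animals were 3-month-old males of the C57Bl/6N; 129 hybrid strain with no further treatment. The IS and caput groups hold 5 ArKI and 5 WT samples each and the testis groups 3 ArKI and 3 WT samples, 26 in all, each a whole dissected tissue with all of its cell types. The line came from targeted embryonic stem cells bred through chimaeras, and the selection cassette had been removed by FLP recombination.

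Type 2 cystatins are small secreted proteins that bind papain-like cysteine proteases, such as the cathepsins, and block their active site. Cystatin C, the product of *Cst3*, is the widely expressed prototype. A subgroup named after *Cst8* (cystatin-related epididymal spermatogenic, CRES) is expressed mainly in the epididymis and the germ cells. Its members keep the cystatin fold but have lost residues of the inhibitory site, and several of them form the amyloid matrix of the epididymal lumen. The IS is the first part of the epididymis and depends on both androgens and factors from the testis.

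In most cystatins, the first inhibitory loop reads glutamine, any residue, valine, any residue, glycine. The codons of this loop are shown because they separate the classical inhibitors from the CRES subgroup. They lie in coding exons and were read from the GRCm38 transcripts of GENCODE, 5′ to 3′ on the coding strand, with the loop positions taken from an alignment of the encoded proteins. Capitals mark a codon for the glutamine, the valine or the glycine at its own position.

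*Cst3*: CAGctcGTGgctGGA
*Cst10*: CAGgttGTGgctGGG
*Cst6*: CAGctgGTGgctGGC
*Cst7*: CAGgtgGTGaaaGGC
*Cstl1*: CAGttgaccacaGGG
*Cst11*: CAGgtgacaggtcac
*Cst13*: CAGatcacagacagt
*Cst8*: CAGatcacagaccga
*Cst12*: CAGaaatatacg
*Cst9*: aaggtaaattttcca

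*Cst3*, *Cst6*, *Cst7* and *Cst10* keep 3 of the 3 fixed residues and *Cstl1* keeps 2. *Cst8*, *Cst11*, *Cst12* and *Cst13* keep 1, the glutamine, and *Cst9* keeps 0. *Cst12* is also 1 codon shorter in the loop, and it is the one member without the proline and tryptophan pair of the second loop. The proteins shared 24.4% (*Cst12*) to 42.9% (*Cst10*) of aligned residues with cystatin C.

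Of the 10 genes, 7 lie in 1 cluster on chromosome 2, chr2:148750358-148875692 in GRCm38 (mm10), which spans 125.3 kb and holds 9 genes. The order along the chromosome is *Cstl1*, *Cst11*, *8030411F24Rik*, *Cst12*, *Cst8*, *Cst13*, *Cst9*, *9230104L09Rik* and *Cst3*. *8030411F24Rik* and *9230104L09Rik* are further cystatin-domain genes, listed by RefSeq as *Cstdc1* and *Cstdc2*. *Cst10* at chr2:149405057-149410293 and *Cst7* at chr2:150570415-150578944 lie outside the cluster, and *Cst6* is on chromosome 19 at chr19:5344705-5349574. No member overlaps another annotated gene.

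Total counts ranged between 5829074 and 9770625 in IS samples, 4125768 and 11913469 in caput samples, and 14077013 and 21376604 in testis samples. At these depths 3 counts, used here as the floor of detection and covering counting error only, equal 0.307 to 0.515 CPM (counts scaled to a common library size) for IS libraries. For caput libraries the floor is 0.252 to 0.727 CPM, and for testis libraries 0.140 to 0.213 CPM. The IS and caput were sequenced in one run and the testis in another, so for testis against epididymis the run and the tissue cannot be told apart. As a check of the labels, the IS marker *Lcn9* lay at 9656 to 10680 CPM in WT IS and at 72.8 to 996 CPM in WT caput, and the caput marker *Lcn5* at 63.7 to 113 CPM and 13986 to 17424 CPM. Against its list, the IS marker *Rnase9* was higher in the caput, and the caput markers *Gpx5* and *Adam7* did not separate the segments (log2 difference between WT IS and WT caput -0.27, adjusted p = 0.092, and 0.12, adjusted p = 0.15). Counts per gene cannot show the point mutations.

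The members differed in the tissue where they were highest. Levels between genes were set on the RPKM scale, read counts scaled to exon length and to the size of the library, as a description with no test. In WT IS the highest was *Cst11* at 8990 ± 265 RPKM (SD, n = 5), followed by *Cst8* at 4386 ± 197, *Cst12* at 3430 ± 563 and *Cst3* at 586 ± 21.8 RPKM. Among these 4 genes no mean ± SD range reached the next. *Cst13* at 2.02 ± 0.806, *Cst9* at 1.04 ± 0.348, *Cst6* at 0.952 ± 0.441, *Cstl1* at 0.538 ± 0.123 and *Cst7* at 0.515 ± 0.224 RPKM followed far below, each overlapping its neighbour in the order. Together the 10 genes took 1.12% ± 0.0511 of all counts in WT IS and 1.07% ± 0.0937 in ArKI IS.

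In WT caput the order changed. *Cst11* was again highest at 1628 ± 937 RPKM, but *Cst3* at 536 ± 29.5 RPKM now exceeded *Cst8* at 201 ± 196 and *Cst12* at 66.0 ± 66.9 RPKM. The large SDs of *Cst8*, *Cst11* and *Cst12* come from samples that differed many-fold within the group. *Cst6* stood at 1.29 ± 0.458 RPKM, and each remaining member was below it.

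In WT testis *Cst8* led at 266 ± 21.3 RPKM (n = 3), ahead of *Cst9* at 158 ± 10.7 RPKM. *Cst3* followed at 113 ± 1.91, *Cst13* at 111 ± 9.92 and *Cst12* at 105 ± 4.18 RPKM. Each of these 3 overlapped its neighbour in the order within its SD, but *Cst3* and *Cst12* did not overlap. *Cstl1* stood at 74.8 ± 9.34 RPKM. *Cst11*, the highest of the 10 members in the IS, was at 2.42 ± 0.156 RPKM in the testis. *Cst9*, *Cst13* and *Cstl1* showed the reverse pattern, with 691 to 2244 counts in every testis sample, genotypes together, and at most 19 in any epididymal sample.

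**Figure D1:**
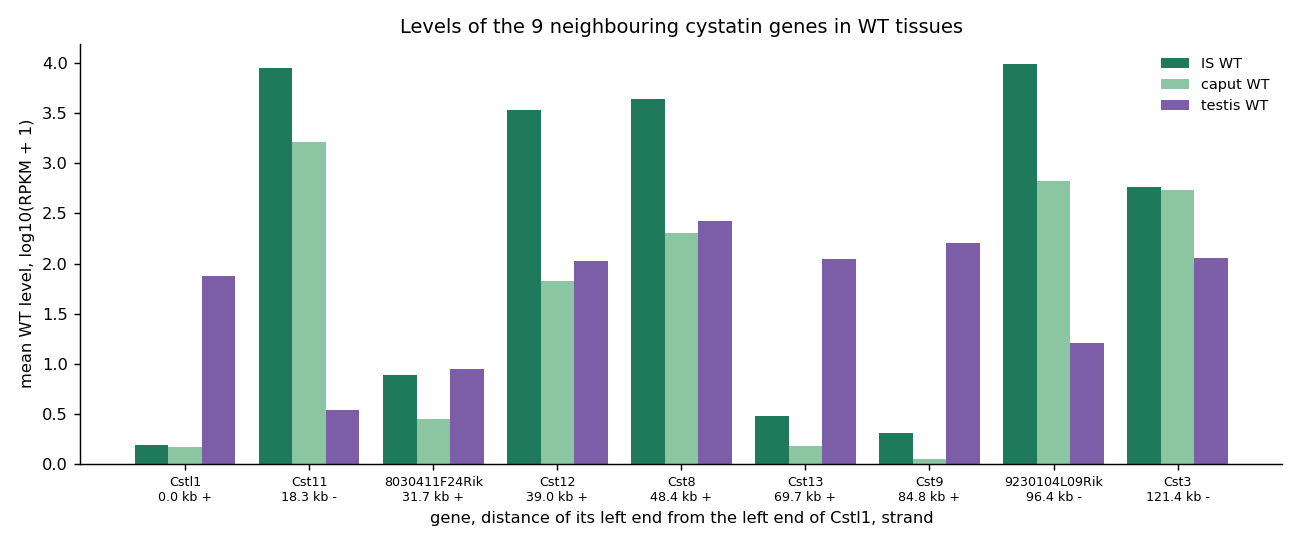
Mean WT level of the 9 cystatin-domain genes of the chromosome 2 cluster in the order in which they lie, as log10(RPKM + 1), with bars for IS (n = 5), caput (n = 5) and testis (n = 3) and the distance from *Cstl1* in kb below each gene. *Cst11*, *Cst12*, *Cst8* and *9230104L09Rik* are highest in the IS, while *Cstl1*, *Cst13* and *Cst9* between and beside them are highest in the testis and *Cst3* is present in all 3 tissues.

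The first comparison asks which cystatins differ between ArKI and WT in the IS. *Cst12* was lower in ArKI, *Cst8* was moderately lower, and *Cst11*, of the same cluster, was slightly higher. Of the 10 members, 6 passed the filter on low counts (*Cst3*, *Cst6*, *Cst8*, *Cst11*, *Cst12* and *Cst13*). With the thresholds of the study's methods, that is an adjusted p under 0.01 together with more than a 2-fold change, *Cst12* was called, 1 of 6, beside 4.04% of the 13434 genes tested. Without the limit on fold, 3 of 6 passed, 1 higher and 2 lower, beside 18.8% of all genes tested. The median log2 fold change of the 6 was 0.06, and that of all genes tested was 0.00.

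*Cst12* (CRES3) encodes a CRES protein of the epididymal lumen. In WT IS it measured 1697, 2037, 1966, 2225 and 1439 CPM in replicates 1 to 5, and in ArKI IS 669, 722, 570, 703 and 648 CPM. Every ArKI sample lay far below every WT sample. The log2 fold change was -1.50 (SE 0.116, a level of 0.354 times WT, edgeR quasi-likelihood test, adjusted p = 5.8e-06).

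*Cst8* (CRES) encodes the founding member of the subgroup. It measured 3223, 3601, 3251, 3351 and 3415 CPM in the WT replicates and 2145, 2190, 2264, 2698 and 2028 CPM in the ArKI replicates. The groups again did not overlap, with ArKI replicate 4 the closest to WT. The log2 fold change was -0.57 (SE 0.063, 0.673 times WT, adjusted p = 1.7e-06 by edgeR), short of the fold limit.

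*Cst11* (CRES2), the most abundant member in the IS, moved the other way. The WT replicates lay at 5473, 5498, 5388, 5810 and 5475 CPM and the ArKI replicates at 8272, 7530, 5931, 7491 and 6401 CPM. The ArKI samples were all above the WT samples, but ArKI replicate 3 exceeded the highest WT sample only narrowly. The log2 fold change was 0.37 (SE 0.073, 1.29 times WT, adjusted p = 0.0012 by edgeR).

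Samples of the 2 genotypes did not overlap in these 3 of the 6 members tested, beside 20% of all genes tested. *Cst3* lay at 480 to 532 CPM in WT and at 486 to 601 CPM in ArKI, with a log2 difference of 0.11 (95% interval 0.01 to 0.22, adjusted p = 0.11 by edgeR). *Cst6*, which encodes cystatin M/E, lay at 1.70 to 5.85 CPM in WT and at 3.00 to 10.96 CPM in ArKI, a log2 difference of 0.95 (95% interval 0.20 to 1.69, adjusted p = 0.089). For *Cst13* the log2 difference was 0.01 (95% interval -0.58 to 0.60, adjusted p = 0.99) on 7 to 19 counts per sample, too few to show a difference smaller than this interval.

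All 3 calls of the IS rest on fitting the IS by itself. In 1 fit over the 20 epididymal samples, which shares 1 estimate of the spread between IS and caput, 0 of the 6 members passed (*Cst12* -1.50, adjusted p = 0.079; *Cst8* -0.57, adjusted p = 0.56; *Cst11* 0.37, adjusted p = 0.52; edgeR), with the fold changes unchanged to the second decimal. The share of all genes that pass for the IS in that fit was not computed, so this count has no background beside it. In the caput the SD of log2(CPM + 0.5) of *Cst12* was 2.01 in WT and 1.49 in ArKI, against 0.25 and 0.13 in the IS.

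Other transcripts also moved with genotype in the IS. The summed level of 5 smooth muscle markers was 546 to 629 CPM in WT and 237 to 421 CPM in ArKI, and 5 of 5 passed the adjusted p as lower, *Myh11* (-1.03) and *Cnn1* (-1.10) with a fold change above 2. The 8 spermatid and sperm markers summed to 9.76 to 65.8 CPM in WT and 2.00 to 5.46 CPM in ArKI, of which 2 were tested and both fell (*Prm2*, -4.11, and *Odf1*, -2.46). The 5 IS epithelium markers summed to 24559 to 27452 CPM in WT and 20601 to 23802 CPM in ArKI. Of these, *Lcn9* (-0.40, adjusted p = 2.2e-05) and *Rnase10* (-0.32, adjusted p = 8.7e-05) were lower while *Adam28* (0.13, adjusted p = 0.11) and *Ros1* (0.08, adjusted p = 0.22) did not pass. Of 4 basal cell markers, 2 were lower, *Krt5* (-0.66, adjusted p = 0.00039) and *Itga6* (-0.27, adjusted p = 0.0081), and the list summed to 337 to 386 CPM in WT and 268 to 293 CPM in ArKI. Of 9 immune markers tested, 2 were lower, the macrophage genes *Csf1r* (-0.54) and *Adgre1* (-0.52), and the list of 12 summed to 203 to 292 CPM and 184 to 249 CPM. Of the caput list, *Adam7* was higher (0.48, adjusted p = 7.5e-07), while *Lcn5* (-0.44, adjusted p = 0.23) and *Gpx5* (0.14, adjusted p = 0.38) did not pass. The Sertoli cell list was divided, with the tight junction gene *Cldn11* lower (-1.02, adjusted p = 2e-05), *Sox9* higher (0.32, adjusted p = 0.0013) and *Wt1* at 1.31 (adjusted p = 0.013). None of the smooth muscle, sperm, IS, basal or immune markers was at 0 in every sample of a group. Their part in the cystatin differences was not tested. In a whole tissue, fewer cells of a type and less RNA per cell cannot be told apart.

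**Figure D2:**
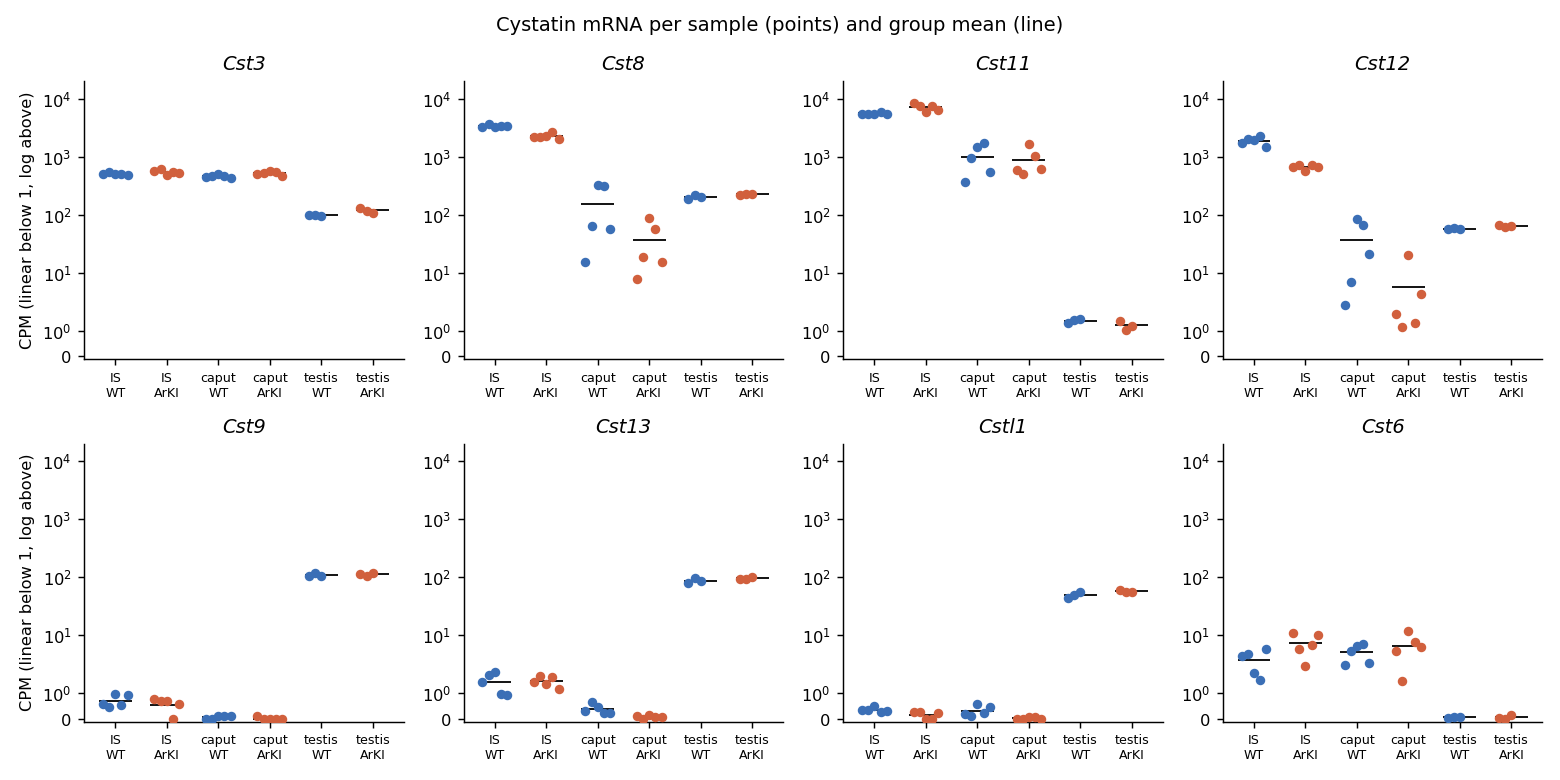
CPM of 8 cystatins in every sample (points, WT blue and ArKI orange) with the group mean (line), for IS, caput (n = 5 per group) and testis (n = 3 per group), on an axis that is linear below 1 CPM and logarithmic above. In the IS the 5 ArKI points of *Cst12* and *Cst8* lie below all WT points and those of *Cst11* above them, whereas the caput points of these 3 genes spread widely in both genotypes.

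*Cst8* and *Cst12* are neighbours, both were lower in ArKI IS, and both are highest in the IS among the tissues, so the bases before their starts are shown. The sequences are those of RefSeq (GRCm38.p6), on the plus strand, and end just before the first start that GENCODE annotates. Capitals mark the 3 runs of 8 bases that the 2 sequences share, in the same order in both, the longest runs found on either strand.

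*Cst8*, chr2:148798589-148798784: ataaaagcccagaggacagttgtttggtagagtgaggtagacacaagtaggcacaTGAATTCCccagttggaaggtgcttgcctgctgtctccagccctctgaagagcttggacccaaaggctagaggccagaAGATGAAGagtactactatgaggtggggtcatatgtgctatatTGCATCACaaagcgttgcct
*Cst12*, chr2:148789115-148789360: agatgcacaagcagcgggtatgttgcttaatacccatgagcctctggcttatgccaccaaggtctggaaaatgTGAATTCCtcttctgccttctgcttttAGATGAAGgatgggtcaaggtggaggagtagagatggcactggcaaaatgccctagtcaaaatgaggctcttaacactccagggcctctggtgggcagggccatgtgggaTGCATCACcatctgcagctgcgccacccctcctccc

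On either strand of the 250 bases before the start, TGAATTCC occurs in 1.03%, AGATGAAG in 1.32% and TGCATCAC in 0.828% of 32851 mouse promoters in the RefSeq table. AGATGAAG is also found before *Cst7*. The runs were picked because the *Cst8* and *Cst12* sequences share them, so these percentages cannot show whether the sharing exceeds chance. How many such runs unrelated sequences of the same lengths would share, or in what order, was not computed. These matches describe letters in a short window only.

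In the caput, *Cst8*, *Cst11* and *Cst12* varied many-fold between samples of 1 genotype, and the genotypes overlapped in each of them. *Cst12* measured 2.77, 6.88, 83.5, 66.1 and 20.8 CPM in WT replicates 1 to 5 and 1.93, 1.15, 19.9, 1.37 and 4.29 CPM in the ArKI replicates. WT replicates 3 and 4 and ArKI replicate 3 were the highest of their groups, and the groups overlapped. The log2 fold change was -2.48 with an SE of 1.09 (edgeR quasi-likelihood test, adjusted p = 0.14), and it ran from -3.87 without ArKI replicate 3 to -1.91 without WT replicate 3.

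*Cst8* measured 15.1, 64.3, 327, 308 and 57.0 CPM in WT caput and 7.84, 18.7, 86.0, 56.2 and 15.2 CPM in ArKI caput. The same WT samples and the same ArKI sample stood out, and the log2 fold change was -2.01 (SE 0.962, adjusted p = 0.17 by edgeR), or -2.58 without ArKI replicate 3 and -1.53 without WT replicate 3. *Cst11* measured 364, 941, 1485, 1683 and 532 CPM in WT caput and 583, 494, 1672, 1041 and 609 CPM in ArKI caput. It was high in the same 3 samples, and the log2 fold change was -0.18 (95% interval -1.21 to 0.84, adjusted p = 0.84 by edgeR).

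The IS marker *Lcn9* followed the same samples, at 72.8, 236, 996, 884 and 217 CPM in WT replicates 1 to 5 and 31.1, 47.7, 326, 150 and 76.0 CPM in the ArKI replicates. *Adam28* ranged from 8.62 to 237 CPM and *Rnase10* from 160 to 1375 CPM over the 10 caput samples. *Ros1* did not follow these samples. It lay at 284 to 321 CPM in WT caput and 346 to 410 CPM in ArKI caput and was higher in ArKI (0.36, adjusted p = 0.00011), whereas *Lcn9* (-1.91, adjusted p = 0.16) and *Rnase10* (-1.19, adjusted p = 0.22) did not pass. As a sum, the 5 IS markers varied less, from 6165 to 8892 CPM in WT and from 6284 to 7771 CPM in ArKI, because *Rnase9* makes up most of the sum. An alternative chosen after these values had been seen fitted the caput with the mean log2 level of the 4 markers that are higher in WT IS than in WT caput (*Ros1*, *Rnase10*, *Adam28*, *Lcn9*) as a covariate. With it, the log2 fold change was -0.84 for *Cst8* (SE 0.281, adjusted p = 0.066), -1.30 for *Cst12* (SE 0.421, adjusted p = 0.057) and 0.31 for *Cst11* (SE 0.220, adjusted p = 0.37), the last with its sign turned. In the same fit *Cst6* was at 0.73 (SE 0.233, adjusted p = 0.029) and *Cst3* at 0.20 (SE 0.057, adjusted p = 0.016), so 0 of 5 passed. Among all 13726 genes tested, this fit called 666. Of the 4 score genes, *Lcn9* and *Rnase10* were lower in ArKI IS and *Ros1* was higher in ArKI caput, while *Adam28* passed in neither segment. The score can thus take up part of a genotype difference, and the change in fold is not a measure of IS tissue. What part tissue from the IS has in these caput values was not tested.

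**Figure D3:**
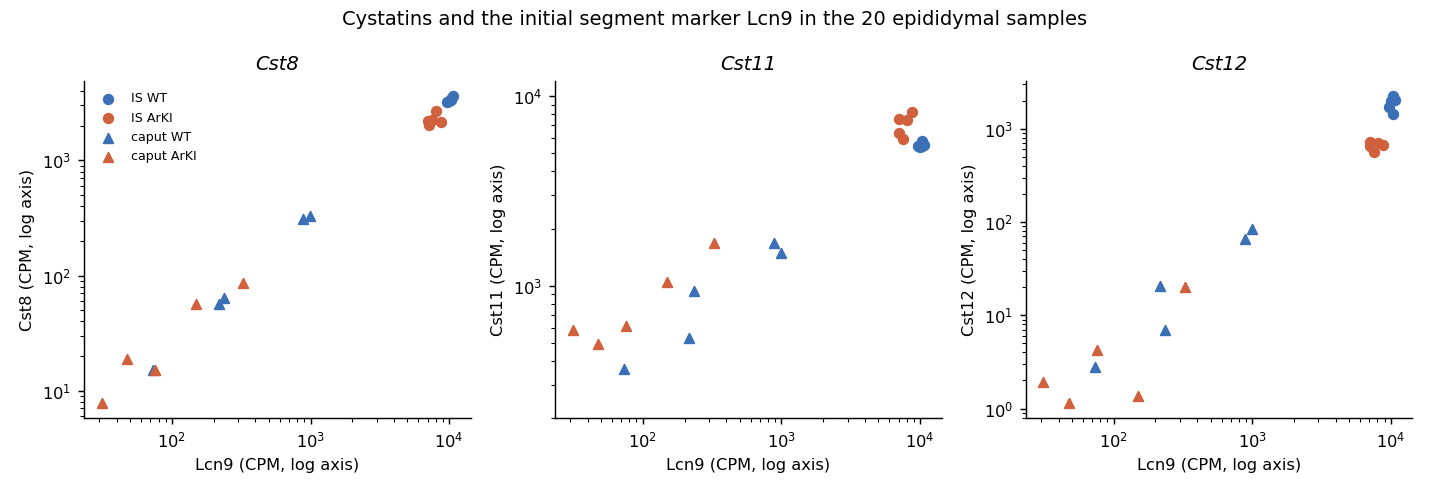
Level of *Cst8*, *Cst11* and *Cst12* (CPM, log axis) against the IS marker *Lcn9* (CPM, log axis) in the 20 epididymal samples, circles for IS and triangles for caput, WT blue and ArKI orange. In most caput triangles the cystatin level rises with *Lcn9*, up to WT replicates 3 and 4 at 996 and 884 CPM of *Lcn9*, and all lie below the IS circles on both axes.

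Among the 10 members, 5 passed the filter in the caput (*Cst3*, *Cst6*, *Cst8*, *Cst11* and *Cst12*). At an adjusted p below 0.01, edgeR called 0 of 5 with a fold change above 2, beside 4.98% of the 13726 genes tested, and 0 of 5 without the fold limit, beside 18%. DESeq2 and limma-voom also called 0, whereas edgeR with a block on the replicate numbers called *Cst8* (adjusted p = 0.0016). The numbers were not taken to pair the samples. In the main fit 1 of the 5, *Cst3*, had an unadjusted p below 0.05, beside 37.7% of all genes tested. No tested member had separate genotypes, beside 20.3% of all genes tested. *Cst3*, the steadiest member, lay at 427 to 497 CPM in WT caput and 461 to 564 CPM in ArKI caput, a log2 difference of 0.16 (95% interval 0.05 to 0.28, adjusted p = 0.052). *Cst6* lay at 3.08 to 7.07 CPM and 1.61 to 11.8 CPM, a log2 difference of 0.46 (95% interval -0.30 to 1.22, adjusted p = 0.44), which was 0.16 without ArKI replicate 3 and 0.64 without ArKI replicate 2.

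**Figure D4:**
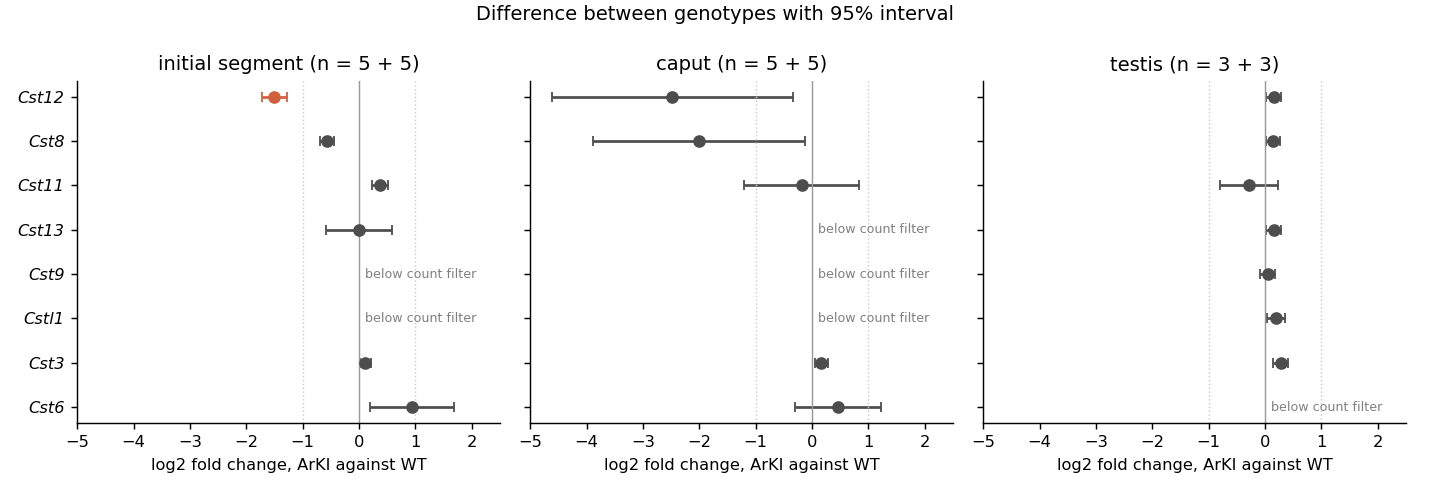
Log2 fold change of ArKI against WT with its 95% interval for 8 cystatins in IS, caput and testis, dotted lines at a fold change of 2 in each direction. *Cst12* in the IS (orange) is the one member past both thresholds, at -1.50. All testis values lie within a log2 difference of 1, and the caput intervals of *Cst12* and *Cst8* are the widest shown. Normal limits were used, so these 2 caput intervals leave out 0 although the edgeR test gave an unadjusted p of 0.052 and 0.07.

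The second comparison follows the members along the duct. In the 20-sample fit, *Cst12*, *Cst8* and *Cst11* were higher in the IS than in the caput in both genotypes, beside 10.2% of 14329 genes in WT and 9.64% in ArKI. For *Cst12* the log2 difference between IS and caput was 5.71 in WT (SE 0.745, edgeR adjusted p = 3e-06) and 6.71 in ArKI (SE 0.827, adjusted p = 1.6e-06). For *Cst8* it was 4.45 in WT (SE 0.749) and 5.91 in ArKI (SE 0.809), and for *Cst11* 2.47 (SE 0.396) and 3.02 (SE 0.405). *Cst3* was nearly level, with a log2 difference of 0.13 in WT (adjusted p = 0.054), and *Cst6* differed by -0.40 (adjusted p = 0.43). *Cst13* passed the filter through the IS alone, with 7 to 19 counts there against 2 to 6 in WT caput and 0 to 2 in ArKI caput, so its call in this fit is not counted. The methods describe IS and caput tissue from 5 ArKI and 5 WT mice, so both segments may come from the same animals, and the fit treats the 20 samples as independent.

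Whether the genotype difference itself changed between IS and caput was tested as an interaction in the same fit. At an adjusted p below 0.01, edgeR, DESeq2 and limma-voom each called 0 of the 6 members, beside 8.18% of all genes tested by edgeR. The 6 include *Cst13*, which passed the filter through the IS alone and whose value is not read as a result. Its unadjusted p was below 0.05 (adjusted p = 0.072 by edgeR), on the few counts of the caput, as was that of 27.8% of all genes tested. No other member had an unadjusted p below 0.05. The interaction was 1.00 for *Cst12* (95% interval -0.95 to 2.94, adjusted p = 0.57), with 0.42 when WT caput replicate 3 was left out and 2.40 without ArKI caput replicate 3, and 1.46 for *Cst8* (95% interval -0.38 to 3.30, adjusted p = 0.34). For *Cst11* it was 0.55 (95% interval -0.49 to 1.59, adjusted p = 0.56). These intervals are too wide to show that the genotype differences are alike in both segments.

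In the testis, 7 members passed the filter and differed little between genotypes. Here *Cst8* and *Cst12*, the members that were lower in ArKI IS, were not lower in ArKI. At an adjusted p below 0.2 and a fold change above 2, the study's testis thresholds, edgeR, DESeq2 and limma-voom called 0 of 7, beside 0.833% of the 15838 genes tested by edgeR. Without the fold limit 1 of 7 passed, *Cst3*, beside 5.34% of all genes, and 5 of 7 had an unadjusted p below 0.05, beside 13.1%. The median log2 fold change of the 7 was 0.15, against 0.00 for all genes tested.

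*Cst3* measured 97.1, 98.3 and 95.03 CPM in WT testis and 129, 116 and 109 CPM in ArKI testis. The ArKI samples were all above the WT samples, with a log2 difference of 0.28 (SE 0.069, 1.22 times WT, adjusted p = 0.031 by edgeR). *Cst12* measured 55.7, 59.7 and 55.8 CPM in WT and 66.2, 61.8 and 62.7 CPM in ArKI. Its groups did not overlap either, as in 17.8% of all genes tested, and the log2 difference of 0.16 did not pass (95% interval 0.02 to 0.29, adjusted p = 0.33). The difference between this value and that in the IS was not tested, since the tissues were sequenced in separate runs.

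*Cst8* measured 189, 222 and 203 CPM in WT testis and 216, 230 and 228 CPM in ArKI testis, a log2 difference of 0.14 (95% interval 0.01 to 0.27, adjusted p = 0.38). *Cst9*, or testatin, a gene of the testis, measured 105, 117 and 104 CPM in WT and 113, 106 and 118 CPM in ArKI, a log2 difference of 0.05 (95% interval -0.09 to 0.18, adjusted p = 0.82). The genotypes of both genes overlapped. *Cst13* (CYMG1) lay at 80.5 to 95.6 CPM in WT and 92.4 to 102 CPM in ArKI, and *Cstl1* at 43.9 to 56.4 CPM and 55.8 to 60.1 CPM. Their log2 differences were 0.15 and 0.20, with adjusted p values of 0.37 and 0.29 by edgeR. *Cst11* had 21 to 23 counts in each testis sample and a log2 difference of -0.28 (95% interval -0.79 to 0.22, adjusted p = 0.70).

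Of other cell types in the testis, 4 Leydig cell markers summed to 420 to 592 CPM in WT and 643 to 688 CPM in ArKI, and 1 of the 4 passed, *Cyp17a1* (0.59, adjusted p = 4.4e-05), whereas *Insl3* differed by 0.02 and *Hsd3b6* by -0.28. The 12 immune markers summed to 374 to 426 CPM and 408 to 450 CPM, and 2 of the 8 tested passed as higher. Of 5 smooth muscle markers, 1 passed as higher, *Acta2* (0.35, adjusted p = 0.023), and *Myh11* was at -0.22 (adjusted p = 0.21), with sums of 107 to 109 CPM in WT and 108 to 128 CPM in ArKI. The 3 genes of the caput list, low in the testis, summed to 55.9 to 61.2 CPM in WT and 35.6 to 44.1 CPM in ArKI, and 1 of the 3, *Gpx5*, passed as lower (-0.54, adjusted p = 0.00049). None of these markers was at 0 in every sample. The 8 spermatid and sperm markers summed to 15559 to 19145 CPM in WT and 17166 to 19694 CPM in ArKI, and 0 of the 8 passed the adjusted p. Their part in the level of *Cst3* was not tested.

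The remaining members were near the limit of detection. *Cst10*, a cystatin of cartilage, had 0 counts in all 26 samples, which allows at most the 3-count levels given above for each tissue. *Cst7*, which encodes the leukocyte cystatin F, had 1 to 10 counts in the IS, at most 3 in the caput and 1 to 12 in the testis. Its difference between genotypes was not detectable at this depth in the caput. In the IS it was 0.29 on the log2(CPM + 0.5) scale (two-sided exact permutation test, p = 0.38). In the testis it was 0.42 (exact permutation test, p = 0.30, where 3 against 3 samples cannot give less than 0.10). *Cst9* differed by -0.25 in the IS on 0 to 9 counts (exact permutation test, p = 0.52). It reached at most 1 count in the caput, and *Cst6* at most 3 in the testis, so no difference was detectable there.

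For *Cst13* in the caput and *Cstl1* in both segments, genes of the testis with few counts in the epididymis, the ArKI values were the lower ones. In the caput *Cstl1* had 1 to 5 counts per sample in WT and 0 to 1 in ArKI, and the difference on the log2(CPM + 0.5) scale was -0.59 (two-sided exact permutation test, p = 0.0079). *Cst13* had 2 to 6 counts in WT caput and 0 to 2 in ArKI caput, a difference of -0.56 (exact permutation test, p = 0.0079). In the IS *Cstl1* had 2 to 4 counts in WT and 0 to 2 in ArKI, a difference of -0.41 (exact permutation test, p = 0.0079). On the CPM scale every WT sample lay above every ArKI sample in these 3 comparisons, but the counts themselves meet at 1 or 2, where library size sets the order. Among genes that passed the filter, the genotypes did not overlap, in either direction, in 20% in the IS and 20.3% in the caput. The share among genes with so few counts was not computed. The p of 0.0079 is the smallest that 5 against 5 samples can give, and it marks no more than such a lack of overlap. These comparisons are 3 of 6 such tests on low members, the values were not adjusted, and most samples lie at or below 3 counts. The sperm markers moved with them, as their sum was 217 to 338 CPM in WT caput and 35.0 to 95.1 CPM in ArKI caput, and 7 of the 7 tested there fell, from -3.63 for *Akap4* to -1.10 for *Odf1* on the log2 scale, with *Prm1*, *Prm2*, *Tnp1*, *Tnp2* and *Smcp* between them. Of the Sertoli cell list in the caput, *Cldn11* was lower in ArKI (-1.32, adjusted p = 1.9e-07), *Sox9* was higher (0.74, adjusted p = 1.5e-07) and *Wt1* was at 0.65 (adjusted p = 0.069). Their part in these counts was not tested.

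Other genes of the same system were taken from lists of cystatin relatives and of their target proteases. Of the cystatin-domain genes of the cluster outside the 10 members, *9230104L09Rik* was the most abundant in WT IS, at 9874 ± 422 RPKM (n = 5). It differed by -0.12 on the log2 scale between ArKI and WT IS (adjusted p = 0.16 by edgeR). In the caput it ranged from 120 to 774 CPM in WT and from 196 to 849 CPM in ArKI. In the testis it was lower in ArKI by the adjusted p alone (-0.53, SE 0.157, adjusted p = 0.10), beside *Gpx5* (-0.54), *Adam7* (-0.48, adjusted p = 0.44) and *Lcn5* (-0.43, adjusted p = 0.27) of the caput list in the same libraries, and their part in it was not tested. *8030411F24Rik* differed by 0.16 in the IS (adjusted p = 0.60).

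Of 13 listed stefins, the intracellular type 1 cystatins, 10 are in the tables, 2 were tested in the IS and 0 of them passed the adjusted p, beside 18.8% of all genes. In the caput 1 was tested, *Cstb*, and passed as lower without reaching the fold limit (-0.24, adjusted p = 0.0029). Of 5 type 3 cystatins (kininogens, fetuins and a relative), 1 was tested in the IS, *Fetub*, and passed as higher by 0.34 (adjusted p = 0.0032). In the caput both tested genes passed, *Fetub* with 0.41 (adjusted p = 0.0087) and *Kng2*, a kininogen gene, with 1.20 (SE 0.265, adjusted p = 0.0024 by edgeR), the one relative past the fold limit. Of all genes tested in the caput, 18% passed the adjusted p and 4.98% both limits. *Cstb* and *Fetub* are named because of their values.

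Of 11 papain-family cathepsins and legumain, the proteases that cystatins inhibit, 11 were tested in the IS. Of these, 3 were higher by the adjusted p and 0 lower, beside 18.8% of all genes in either direction, and 0 passed the fold limit, beside 4.04%. They were *Ctso* (0.64, adjusted p = 7.3e-07), *Ctsc* (0.50, adjusted p = 2.8e-05) and *Ctsb* (0.22, adjusted p = 0.00097), named after their values were seen. The median of the 11 was 0.15. In the caput *Ctso* and *Ctsb* were again higher and *Ctsc*, the dipeptidyl peptidase cathepsin C, was lower by -0.73 (SE 0.067, adjusted p = 4e-07). In the interaction test 1 of the 11 proteases passed the adjusted p, beside 8.18% of all genes tested. It was *Ctsc* (1.23, SE 0.103, adjusted p = 7.1e-09 by edgeR). In the testis 7 of 10 tested proteases were higher by the adjusted p and 0 lower, where 5.34% of all genes passed in either direction, with a median of 0.38 and *Ctsb* at 0.53 (adjusted p = 6.6e-05). In the same libraries the median of the 8 immune markers tested was 0.34, and 2 of them passed as higher. The medians of the Leydig, sperm and Sertoli lists were 0.18, 0.06 and 0.01. Their part in the protease levels was not tested.

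*Cebpb*, the transcription factor gene whose product is known to act on the *Cst8* promoter, was higher in the IS than in the caput in WT (2.28, SE 0.162, adjusted p = 1.3e-10). Between genotypes it differed by -0.24 in the IS (adjusted p = 0.13 by edgeR) and by 0.38 in the caput (adjusted p = 0.14), and neither passed. In the testis it was 0.96 higher in ArKI (1.95 times WT), past the adjusted p limit for that tissue (adjusted p = 0.086) but short of the fold limit. Over the 20 epididymal samples, the genes whose log2(CPM + 0.5) ran most closely with *Cst12* were *Enpp2* (Pearson's r = 0.991), *5830403L16Rik* (r = 0.986) and *Runx2* (r = 0.986). They were picked as the 3 highest of 14329 genes, and the samples share the gap between IS and caput.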

How the data were processed

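The authors sequenced RNA of whole IS, caput and testis as 50-base single-end reads. They aligned the reads to mm10 with STAR, counted uniquely mapped reads per RefSeq gene with Subread 1.5.1, and deposited raw counts, without normalization or filtering, in 1 table for the epididymis and 1 for the testis. The labels name an unstranded library kit and the methods a stranded one, and whether strand was used in counting is not given in the sources used here. The replicate numbers are those of the labels, the samples of 1 tissue are taken as separate mice, and which IS and caput samples share a mouse is not stated.

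The members, lists and tests were chosen with earlier results of these data known. Genotypes were compared within 1 tissue at a time with edgeR 4.0.16 under R 4.3.3, using TMM factors, the defaults of filterByExpr (count minimum 10, total minimum 15), a robust quasi-likelihood fit and Benjamini-Hochberg adjustment over all genes tested. The study's methods used ROTS on voom values, which was not run here. Segments and the interaction were tested in 1 fit of 20 samples. Members below the filter with over 3 counts in some sample were compared by exact permutation of log2(CPM + 0.5). CPM used TMM factors within each table. RPKM used the merged exon length of each gene in GENCODE (GRCm38), whereas counting used RefSeq. The 95% intervals are the fold change with normal limits. Alternatives were RLE factors, library size only, 2 other filters, DESeq2 1.42.0, limma 3.58.1, a replicate block, the 20-sample fit, another threshold, leaving out each replicate, and the added covariate. The fits were tested on simulated data. Loop codons were located from proteins aligned with mafft 7.526, and plots were made in Python 3.11.15 with matplotlib 3.10.9. The rule for naming genes took all 10 members, up to 8 called genes of the lists per comparison by adjusted p, and the 3 genes most like a called member. List genes called only between segments or in the interaction are mostly left out. The gene mutated in ArKI mice is not reported here.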

Additional observations from a re-analysis of the deposited data

Results flagged for a closer look

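Of 29 groups of 5 samples that were checked, 3 held 1 extreme sample far from its nearest neighbour, where chance gives about 1 in 20. *Cst11* in WT IS replicate 4 was at 5810 CPM. *Cst9* in ArKI IS replicate 4 had 0 counts, and 0 CPM. *Cst12* in ArKI caput replicate 3 was at 19.9 CPM, the sample that was also highest in its group in *Cst8*, *Cst11* and the IS marker *Lcn9*.

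All ArKI samples of *Cst12* lay below all WT samples in the IS (-1.50 on the log2 scale) and above them in the testis (0.16), where the difference did not pass (edgeR adjusted p = 0.33). The difference between the tissues was not tested.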

How the results depend on the processing

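Over 43 results and 935 alternative values, 910 were graded as unchanged. For a fold change this means the same direction and the same side of the adjusted p limit, with no regard to the fold limit. For a count of called members, a small change of the count was also graded as unchanged. The fold changes of *Cst3* and *Cst6* in the ArKI segment comparison and the interaction were left out of this tally. In 1 fit of all epididymal samples, the IS gave 0 cystatins with a fold change above 2 (1 before) and 0 without a fold limit (3 before). With the replicate block, the caput gave 1 with and 1 without the fold limit, *Cst8* (adjusted p = 0.0016, edgeR), where 0 had been called, and the cause was not tested. The same-numbered samples did not correlate above 0.1 in every pair of any comparison (IS -0.0886 to 0.203, caput -0.17 to 0.189, testis -0.00481 to 0.0556), so the numbers were not taken to pair the samples, and not every sample correlated best with its own number. The block also brought *Cst6* in the IS to an adjusted p of 0.0026. Between IS and caput of 1 genotype the correlations were -0.00293 to 0.174 in WT and -0.0983 to 0.2 in ArKI, and a block of genotype and number kept the same segment calls in both genotypes (3, and *Cst13*, which passed the filter through the IS alone) and 0 in the interaction. Under a filter of at least 10 counts per sample, both segment comparisons called 2 cystatins in place of 4 (*Cst13* included), since *Cst12* and *Cst13* left the table, and with every gene of at least 1 count they called 5 in WT (*Cst9* added) and 6 in ArKI (*Cst7* and *Cst9* added), genes near the floor in the caput. Leaving out 1 replicate, the testis count without a fold limit ran from 1 to 3 (2 without WT replicate 3, 3 without WT replicate 2), and the counts of the IS (1 and 3), the caput (0), the segments (4 with *Cst13*) and the interaction (0) did not change. In the same fits *Cst12* in the IS stayed between -1.58 and -1.43. *Cst13* in the IS ran from -0.15 to 0.19 (below 0 without ArKI replicate 2 or 4, at -0.08 and -0.05, and WT replicate 4 or 5, at -0.11 and -0.15). *Cst11* in the caput ran from -0.55 to 0.086 (0.0025 without WT replicate 3 and 0.086 without WT replicate 4), and was 0.31 with the covariate. Depth limits *Cst7*, *Cst10*, and *Cst9*, *Cst13* and *Cstl1* in the epididymis.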
